A study of Homo sapiens with 12 samples.

Results

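The comparison described here is ibrutinib plus venetoclax against vehicle in Z-138 cells that carry SMARCA4 shRNA. Z-138 is an established human mantle cell lymphoma line, and SMARCA4 encodes BRG1, an ATPase of the SWI/SNF chromatin remodelling complexes. The members were chosen by label alone: 3 libraries of SMARCA4 shRNA cells given 3 µM ibrutinib with 3 µM venetoclax, and 3 libraries of SMARCA4 shRNA cells given DMSO, together 6 of the 12 libraries of the study. The other 6 libraries came from control shRNA cells with the same 2 treatments, and are used here where the responses of the 2 genotypes are set side by side. All 4 groups were cultured with doxycycline, in IMDM with fetal calf serum. The length of the drug exposure, the number of hairpins and whether each genotype is a pool or a clone are not stated in the labels. Nothing in the labels says that the 3 libraries of a group came from separate cultures, so every p-value rests on a spread that may be technical. The drugs were given together, so the parts of ibrutinib and venetoclax cannot be told apart.

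Ibrutinib binds covalently to BTK, the kinase that passes the B cell receptor signal on to phospholipase C, ERK and NF-kB. Immediate early genes such as EGR1, FOS and JUN are transcribed within minutes of such signals, and serum response factor switches on many of them through CArG boxes in their promoters. Venetoclax occupies the groove of BCL2 and frees pro-apoptotic BH3 proteins from it. The transcription factor ATF4 is translated when eIF2 is phosphorylated, and it drives amino acid synthesis and import through C/EBP-ATF response elements (CARE). SREBP-2 and SREBP-1, released from the endoplasmic reticulum when membrane sterol is low, drive cholesterol and fatty acid synthesis through sterol regulatory elements (SRE).

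The promoters of 4 genes that changed are printed because each holds the element named above for its group. EGR1 and EGR2 are immediate early transcription factors that fell, CHAC1 is an ATF4 target that rose, and SREBF2 encodes SREBP-2 and rose. Each line gives the 250 bases before the RefSeq gene start on GRCh38.p14, 5′ to 3′ on the strand of the gene. Capitals mark the CArG boxes in EGR1 (chr5:138465229-138465478, plus strand) and EGR2 (chr10:62816367-62816616, minus strand, at 1 of its 3 listed starts), the CARE in CHAC1 (chr15:40953221-40953470, plus strand) and the SRE in SREBF2 (chr22:41832855-41833104, plus strand).
EGR1: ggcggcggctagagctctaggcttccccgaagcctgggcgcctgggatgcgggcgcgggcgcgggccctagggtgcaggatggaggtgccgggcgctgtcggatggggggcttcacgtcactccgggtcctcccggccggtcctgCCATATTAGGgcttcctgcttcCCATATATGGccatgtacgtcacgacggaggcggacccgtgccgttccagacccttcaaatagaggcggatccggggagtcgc
EGR2: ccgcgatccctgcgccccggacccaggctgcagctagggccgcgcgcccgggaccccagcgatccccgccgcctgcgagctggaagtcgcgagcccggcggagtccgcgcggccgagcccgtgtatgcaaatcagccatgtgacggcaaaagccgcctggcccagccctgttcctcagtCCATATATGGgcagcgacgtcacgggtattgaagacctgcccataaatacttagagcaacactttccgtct
CHAC1: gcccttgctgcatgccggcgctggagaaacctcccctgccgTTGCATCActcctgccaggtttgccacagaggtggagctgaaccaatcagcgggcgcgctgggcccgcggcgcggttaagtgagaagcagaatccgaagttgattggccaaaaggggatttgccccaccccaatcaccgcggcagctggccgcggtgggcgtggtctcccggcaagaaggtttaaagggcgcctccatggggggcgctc
SREBF2: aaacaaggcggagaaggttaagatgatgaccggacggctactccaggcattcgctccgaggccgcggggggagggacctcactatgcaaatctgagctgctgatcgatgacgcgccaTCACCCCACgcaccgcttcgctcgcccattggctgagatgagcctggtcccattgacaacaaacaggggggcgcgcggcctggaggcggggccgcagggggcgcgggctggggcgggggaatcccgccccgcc

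The EGR1 boxes began 105 and 83 bases before the start, the EGR2 box 71 bases, the CHAC1 element 209 bases and the SREBF2 element 133 bases. CARE was searched as TGATGNAA and SRE as TCACNCCAC, each on both strands, and the CArG box, which reads the same on both, by its usual definition. None of the 4 printed windows held either of the other motifs. Among the 11 immediate early genes that fell, 2 held a CArG box (EGR1 and EGR2), against 1.159% of 35116 RefSeq windows of the same length. Of the 17 lipid synthesis genes that rose, 11 were in the promoter table and 1, SREBF2, held the SRE, against 0.8828% of all windows. Of 17 genes that rose in the ATF4, amino acid synthesis, transporter and tRNA synthetase lists, 13 were in the table. The CARE was present in 5 of those (AARS, ASNS, CHAC1, GARS and SLC1A5), against 3.144% of all windows. A gene was counted when any of its listed starts held the motif, whereas the shares are per window. The CArG, SRE and CARE gene sets had 14, 14 and 21 windows, so gene counts and window shares are not like for like. A match is a description of these letters and shows no binding.

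The 6 libraries held 7279503 to 22528537 counts, and the deepest was replicate 3 of the DMSO group. SMARCA4 itself (ENSG00000127616) stood at 177, 174 and 159 CPM (counts scaled to library size, with TMM factors) in the 3 DMSO libraries of knockdown cells, and at 577 ± 21.6 (SD, n = 3) in control shRNA cells given DMSO. Treatment left it at 175 ± 8.66 CPM, a log2 difference of 0.05 (SE 0.06, adjusted p = 0.88, edgeR quasi-likelihood test). B cell markers were present (5 of 6 had a row, with 243 to 250 summed CPM under DMSO and 263 to 278 under drug), and CD22 is not analysed here. None of 7 monocyte and macrophage markers had a row, 3 of 9 T and NK cell markers summed to 1.75 to 3.15 CPM under DMSO and 2.03 to 3.54 under drug, and 1 of 8 fibroblast and epithelial markers (COL1A1) had a row, at 14.2 to 15.1 CPM. The first principal component of the 6 libraries held 27.2% of the variance and put all 3 drug libraries on one side and all 3 DMSO libraries on the other.

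At an adjusted p under 0.05 (edgeR quasi-likelihood test, Benjamini-Hochberg over 12602 genes), 162 genes changed with the drugs in knockdown cells, 1.29% of those tested. Of these, 93 rose (0.738%) and 69 fell (0.548%). Immediate early genes made up much of the largest falls, while cholesterol and fatty acid synthesis, amino acid synthesis and import, and small nuclear RNAs were found among the rises. Most changes were small: the median log2 fold change was 0.42 among genes that rose and -0.52 among those that fell, and 19 and 12 genes reached a 2-fold change. The median over all genes was 0.0006, and called (fitted) values ran from -3.69 (NR4A1) to 2.51 (RN7SK). In 159 of the 162 genes the 3 drug libraries lay wholly above or below the 3 DMSO libraries, against 7.76% (above) and 7.45% (below) of all genes tested. The 3 exceptions were FOSB, EIF4A1 and GRM4. Scaling by library totals alone changed the split from 93 higher and 69 lower to 132 higher and 53 lower. Leaving out replicate 3 of the DMSO group left 100 calls, and leaving out replicate 1 of the drug group left 102.

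**Figure D1:**
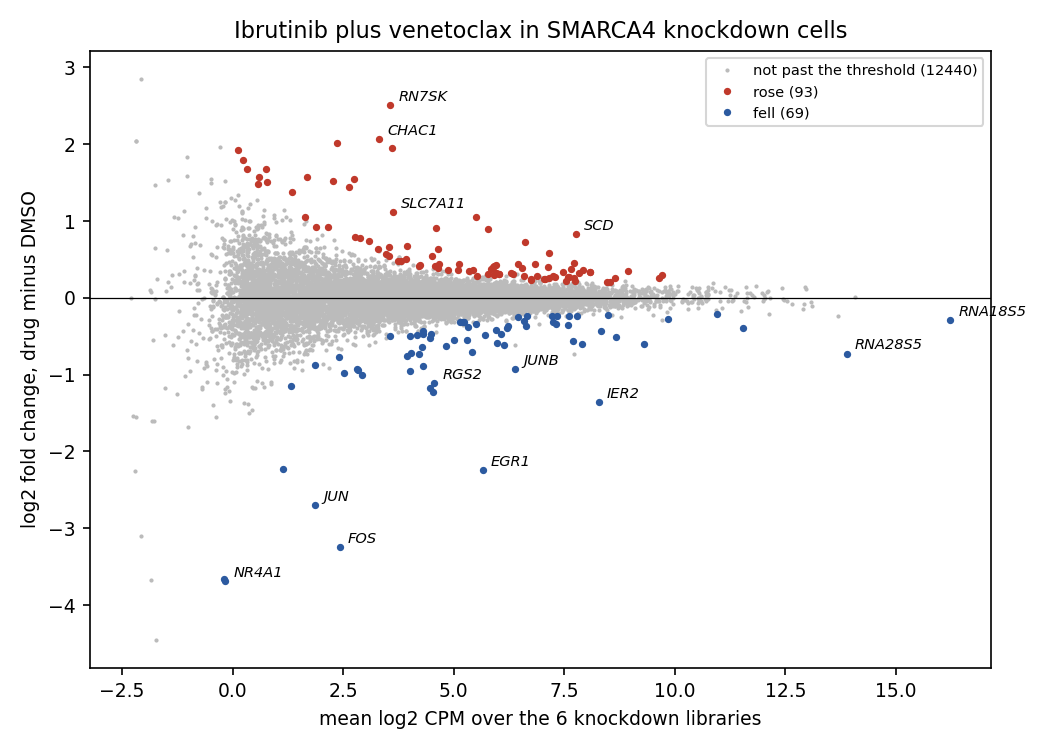
Log2 fold change of drug against DMSO in SMARCA4 knockdown cells (y axis) against the mean log2 CPM over the 6 libraries (x axis), 1 point per gene, for 12602 genes. Red points rose (93), blue points fell (69) and grey points did not pass the threshold. Among genes past the threshold, the largest falls are immediate early genes and the largest rise is RN7SK, at 2.51.

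Genes of the immediate early list, not all of them transcription factors, carried the largest falls. Of 17 members tested, 11 fell and none rose, against 0.548% of all genes that fell, and all 17 had a negative log2 fold change (median -0.72). EGR1 (ENSG00000120738), a zinc finger factor induced by ERK signalling, stood at 40.5, 125 and 191 CPM under DMSO and 29.1, 31.0 and 18.1 CPM under the drugs. All 3 drug libraries were below all 3 DMSO libraries, which themselves spread widely. In control shRNA cells the DMSO libraries read 55.5, 126 and 150.4 CPM, and replicate 1 was the lowest there too. The log2 fold change of EGR1 was -2.24 (SE 0.33, adjusted p = 7.69e-05), and -1.67 without DMSO replicate 3. IER2 (ENSG00000160888), a small nuclear protein of the same early wave, gave 269.8, 559.8 and 716 CPM under DMSO and 206, 217 and 186 CPM under drug. The groups did not overlap, and the difference was -1.35 (SE 0.19, adjusted p = 2.68e-05).

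Subunits of AP-1 fell as well. AP-1 is a dimer of JUN and FOS family proteins. JUN, at 4.48, 7.71 and 14.4 CPM under DMSO, read 1.31, 2.03 and 1.10 CPM under the drugs (-2.70, SE 0.40, adjusted p = 7.69e-05). FOS stood at 4.70, 15.2 and 30.9 CPM and at 2.10, 2.03 and 1.76 CPM, a change of -3.25 (SE 0.49, adjusted p = 8.46e-05). In both genes every drug library was below every DMSO library, and JUN rested on 10 to 17 counts per drug library. Without DMSO replicate 3 the values were -2.04 for JUN and -2.34 for FOS, and the FOS call was lost with limma-voom (adjusted p = 0.0561). JUNB (ENSG00000171223) gave 88.9, 109 and 149 CPM and then 60.8, 70.4 and 54.3 CPM, a smaller fall of 0.93 (SE 0.12, adjusted p = 1.42e-05). JUND, the subunit with the steadiest basal expression, fell by 0.48 (SE 0.08, adjusted p = 2.59e-04). FOSB fell by 2.23 (adjusted p = 0.00482), but drug replicate 3 lay above DMSO replicate 1, and without DMSO replicate 3 the adjusted p was 0.284 and the change -1.35.

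EGR2 and NR4A1 were read from few counts. EGR2, the second EGR factor, had 16, 18 and 58 counts under DMSO and 1, 3 and 0 under the drugs, with an adjusted p of 1.15e-04. NR4A1, an orphan nuclear receptor and reporter of antigen receptor signalling, had 4, 24 and 95 counts and then 3, 1 and 1 (adjusted p = 0.00174). The highest drug library was below the lowest DMSO library in both, by a single count for NR4A1 before scaling, and without DMSO replicate 3 the NR4A1 adjusted p was 0.0787. The Krüppel-like factors KLF6 and KLF2, the latter a regulator of lymphocyte trafficking, fell by 0.61 (SE 0.09, adjusted p = 6.37e-05) and 0.72 (SE 0.15, adjusted p = 0.00474). KLF2 gave -0.49 without DMSO replicate 3 (adjusted p = 0.175). The remaining 6 members, BTG2, IER5, KLF10, MCL1, NR4A2 and ZFP36, did not pass and ran from -0.62 to -0.11. Summed over the list, the 3 DMSO libraries held 1395, 1855 and 2201 CPM and the 3 drug libraries 1210, 1224 and 1166 CPM. Without DMSO replicate 3, the library with the highest sum and the greatest depth, 8 members fell in place of 11, and the part of the spread among DMSO libraries in these falls was not tested. DESeq2 and limma-voom each called 8.

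**Figure D2:**
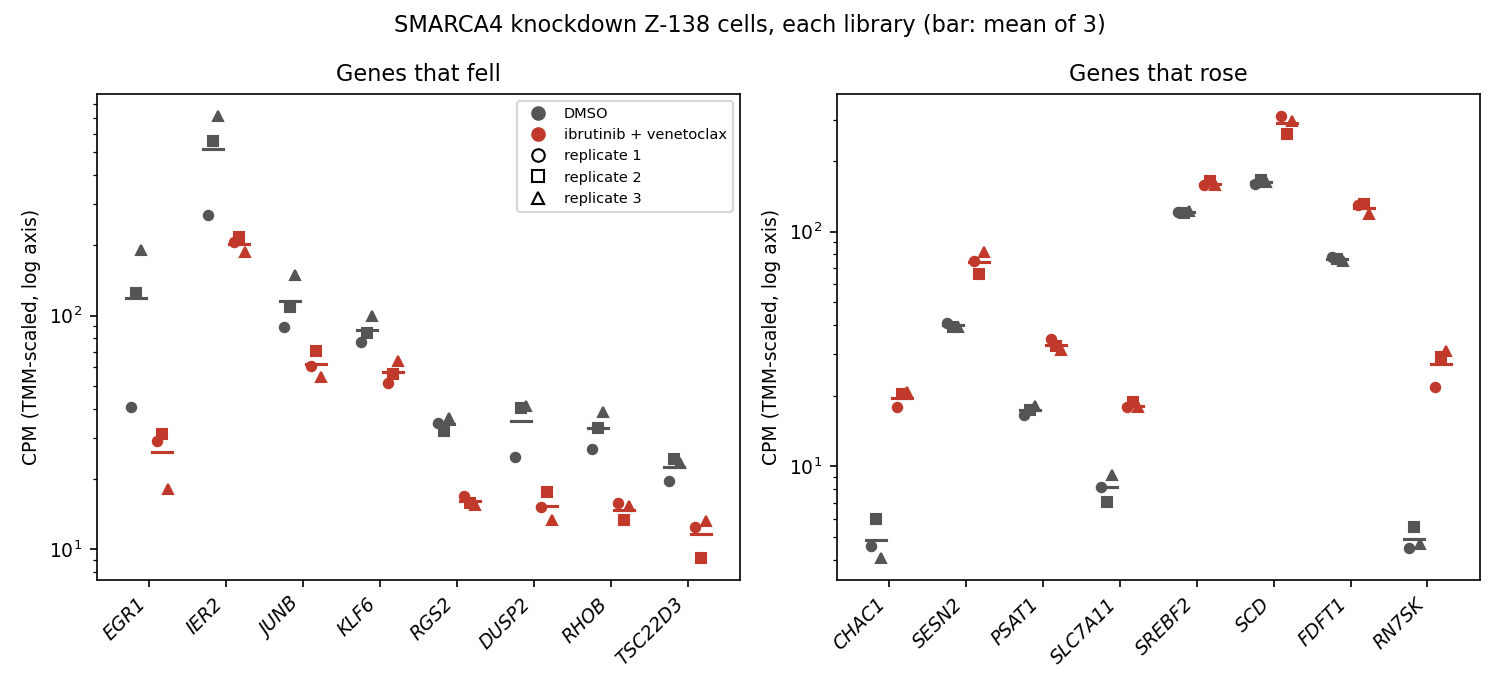
Level of 16 genes in each of the 6 SMARCA4 knockdown libraries, as TMM-scaled CPM on a log axis (left, 8 that fell; right, 8 that rose). Grey symbols are DMSO and red symbols ibrutinib plus venetoclax, the shape gives the replicate and the bar is the mean of 3. The DMSO libraries spread widely for EGR1 (40.5 to 191 CPM) and narrowly for SCD (160 to 165 CPM), and the 2 colours do not overlap in any of the 16 genes.

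RGS1, RGS2 and DUSP2 fell in the lists of B cell receptor targets and ERK feedback genes. RGS2 (ENSG00000116741), a GTPase activator for G protein alpha subunits, stood at 34.8, 32.1 and 36.3 CPM under DMSO and 16.9, 15.8 and 15.5 CPM under the drugs. The 2 groups were each tight and far apart, and RGS2 fell by 1.11 (SE 0.10, adjusted p = 2.88e-09). Its relative RGS1, which tempers chemokine receptor signals in B cells, fell by 0.92 (SE 0.17, adjusted p = 0.00124). Of 16 tested targets of B cell receptor and NF-kB signals, these 2 passed (median -0.02), against 0.548% falling among all genes. DUSP2 (ENSG00000158050), a nuclear phosphatase that removes phosphate from ERK, gave 24.7, 40.4 and 41.0 CPM and 15.2, 17.5 and 13.4 CPM. Every drug library was below every DMSO library, and DUSP2 fell by 1.23 (SE 0.17, adjusted p = 2.68e-05). It was the 1 of 9 ERK feedback genes that passed. DUSP5 was at -0.87 (adjusted p = 0.0871), and DUSP6 was at 0.26 (adjusted p = 0.907).

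Outside these lists, RHOB, a small GTPase of endosomes and the cytoskeleton, went from 32.9 ± 5.94 CPM to 14.8 ± 1.26 CPM (SD, n = 3), a log2 fold change of -1.18 (adjusted p = 7.82e-06). TSC22D3, the glucocorticoid-induced leucine zipper protein, fell by 0.95 (adjusted p = 1.18e-04) and the adaptor SORBS2 by 0.88 (adjusted p = 1.35e-05). TRIB1, a pseudokinase scaffold, fell by 1.01 (adjusted p = 0.00393), and this became -0.73 without DMSO replicate 3 (adjusted p = 0.148). The TNF family ligand CD70 read 498, 468 and 490.2 CPM under DMSO and 323, 417 and 287 CPM under drug (-0.51, adjusted p = 1.67e-04), with drug replicate 2 nearest the DMSO libraries. IL23A, a subunit of interleukin 23, fell by 0.63 (adjusted p = 8.46e-05), and the growth factor chain PDGFA by 0.36 (adjusted p = 5.36e-05). ACTB, cytoplasmic actin, fell by 0.22 (SE 0.05, adjusted p = 0.0226).

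Genes of cholesterol synthesis were among the rises. Of 24 tested genes of cholesterol synthesis and uptake, 12 rose and none fell, against 0.738% of all genes that rose, and 22 of 24 values were positive (median 0.33). FDFT1 (ENSG00000079459), squalene synthase, stood at 77.9, 76.6 and 74.7 CPM under DMSO and 129, 131 and 119 CPM under the drugs (0.73, SE 0.07, adjusted p = 5.85e-09). Both groups were tight, and every drug library was far above every DMSO library.

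HMGCS1, which makes HMG-CoA, rose by 0.63 (adjusted p = 1.60e-04). Mevalonate kinase MVK rose by 0.42, squalene epoxidase SQLE by 0.36 and lanosterol synthase LSS by 0.49 (adjusted p = 0.00118, 0.019 and 0.0432). Of the late enzymes, EBP rose by 0.38 and DHCR7 by 0.50 (adjusted p = 0.00153 and 0.0265). The LSS call was lost in 11 and the DHCR7 call in 8 of 23 alternative analyses, DESeq2 among them for both. SREBF2 (ENSG00000198911), whose promoter is printed above, read 122, 120.1 and 122 CPM under DMSO and 157, 164 and 159 CPM under the drugs (0.40, SE 0.06, adjusted p = 2.68e-05), with little spread in either group. INSIG1, the sterol-sensing retention protein, rose by 0.38 (adjusted p = 1.32e-04). The 12 members that did not pass ran from -0.09 (SCAP) to 0.45 (ACAT2, adjusted p = 0.821). Outside the list, MMAB, the genomic neighbour of MVK, rose by 0.44 (adjusted p = 3.22e-05). Leaving out single knockdown libraries left 8 to 12 of the 24 past the threshold.

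Fatty acid synthesis showed the same direction in fewer members, with 5 of 15 rising, against 0.738% of all genes. None fell (median 0.21). SCD (ENSG00000099194), stearoyl-CoA desaturase, stood at 160.1, 165 and 162 CPM under DMSO and 312, 259.8 and 296 CPM under the drugs. SCD rose by 0.83 (SE 0.07, adjusted p = 2.32e-10), and its lowest drug library was well above its highest DMSO library. FASN, fatty acid synthase, rose by 0.34 (adjusted p = 1.00e-04) and FADS1, the delta-5 desaturase, by 0.57 (adjusted p = 0.00822). ACLY, which makes cytosolic acetyl-CoA, and the acyl-CoA ligase ACSL3 each rose by 0.26 (adjusted p = 0.0092 and 0.0163). The count was 2 without DMSO replicate 3 and 3 without drug replicate 3. None of 6 cholesterol efflux and LXR target genes passed with edgeR, DESeq2 or limma-voom (median -0.16). An unadjusted p under 0.05 (edgeR) was found for 2 of the 6, against 1316 of all 12602 genes tested.

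Genes of the ATF4 response rose around CHAC1. CHAC1 (ENSG00000128965), an enzyme that degrades glutathione, stood at 4.59, 5.97 and 4.08 CPM under DMSO and 17.8, 20.3 and 20.8 CPM under the drugs. Every drug library was far above every DMSO library, and it rose by 2.07 (SE 0.14, adjusted p = 1.30e-11). SESN2 (ENSG00000130766), a leucine sensor that restrains mTORC1, gave 40.9, 39.4 and 39.3 CPM and 74.8, 66.2 and 81.9 CPM (0.90, SE 0.07, adjusted p = 3.93e-10). ATF4 itself rose by 0.34 (SE 0.05, adjusted p = 1.18e-04), from 437 ± 14.8 to 555 ± 16.7 CPM (SD, n = 3). These were 3 of 17 regulators and targets tested, against 0.738% rising among all genes, and none fell (median 0.21). ATF3, a stress-induced repressor, read 1.31, 1.30 and 2.04 CPM under DMSO and 4.07, 3.82 and 2.41 CPM under drug. Its groups did not overlap, but its log2 fold change of 1.02 (SE 0.31) had an adjusted p of 0.133. DDIT3 (CHOP) was at 0.75 (adjusted p = 0.0548) and TRIB3 at 0.37 (adjusted p = 0.353). INHBE, a hormone of the TGF-beta family known as an ATF4 target, rose from 3.75 ± 0.176 to 11.1 ± 1.29 CPM (1.55, adjusted p = 1.54e-06).

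Enzymes that make serine, asparagine and one-carbon units rose in 7 of 15 cases, against 0.738% of all genes, and fell in none (median 0.29). PSAT1 (ENSG00000135069), the aminotransferase of serine synthesis, stood at 16.5, 17.5 and 18.1 CPM under DMSO and 34.8, 32.7 and 31.4 CPM under the drugs (0.91, SE 0.09, adjusted p = 8.90e-08). The drug libraries were all well above the DMSO libraries. PHGDH and PSPH, the enzymes before and after PSAT1 in that pathway, rose by 0.29 and 0.42 (adjusted p = 0.0172 and 0.0109). Asparagine synthetase ASNS rose by 0.32 and the mitochondrial folate enzyme MTHFD2 by 0.37 (adjusted p = 0.00103 and 9.66e-05). The mitochondrial alanine aminotransferase GPT2 rose by 0.58 and cystathionine beta-synthase CBS by 0.40 (adjusted p = 3.59e-07 and 0.00174). PCK2, mitochondrial phosphoenolpyruvate carboxykinase, lay outside the list and rose by 0.67 (adjusted p = 1.84e-04).

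Among 11 amino acid transporters, 3 rose, against 0.738% of all genes, and none fell (median 0.14). SLC7A11 (ENSG00000151012), which imports cystine in exchange for glutamate, gave 8.20, 7.06 and 9.22 CPM under DMSO and 17.8, 18.7 and 17.9 CPM under the drugs (1.12, SE 0.14, adjusted p = 3.97e-06). The drug libraries were nearly equal, and all lay above the highest DMSO library. SLC7A1, a carrier of cationic amino acids, rose by 0.44 and the glutamine carrier SLC1A5 by 0.41 (adjusted p = 1.42e-05 and 2.59e-04). Of 20 cytosolic aminoacyl-tRNA synthetases, AARS, GARS, TARS and YARS rose, by 0.22 to 0.29, and none fell (median 0.09). That count was 0 without DMSO replicate 1, where the 4 values ran from 0.20 to 0.26, and 1 without DMSO replicate 2 or 3. DESeq2 and limma-voom each called 4.

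Endoplasmic reticulum chaperones and the unfolded protein response gave 3 rises in 22 genes tested (median 0.11), against 0.738% of all genes. HSPA5, the lumenal chaperone BiP, went from 751 ± 11.8 to 923 ± 41.4 CPM (0.30, SE 0.05, adjusted p = 1.84e-04). XBP1, whose mRNA is spliced by IRE1, rose by 0.35 and the secreted factor MANF by 0.27 (adjusted p = 0.00982 and 0.0282). Without drug replicate 1 the list held 1 rise.

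**Figure D3:**
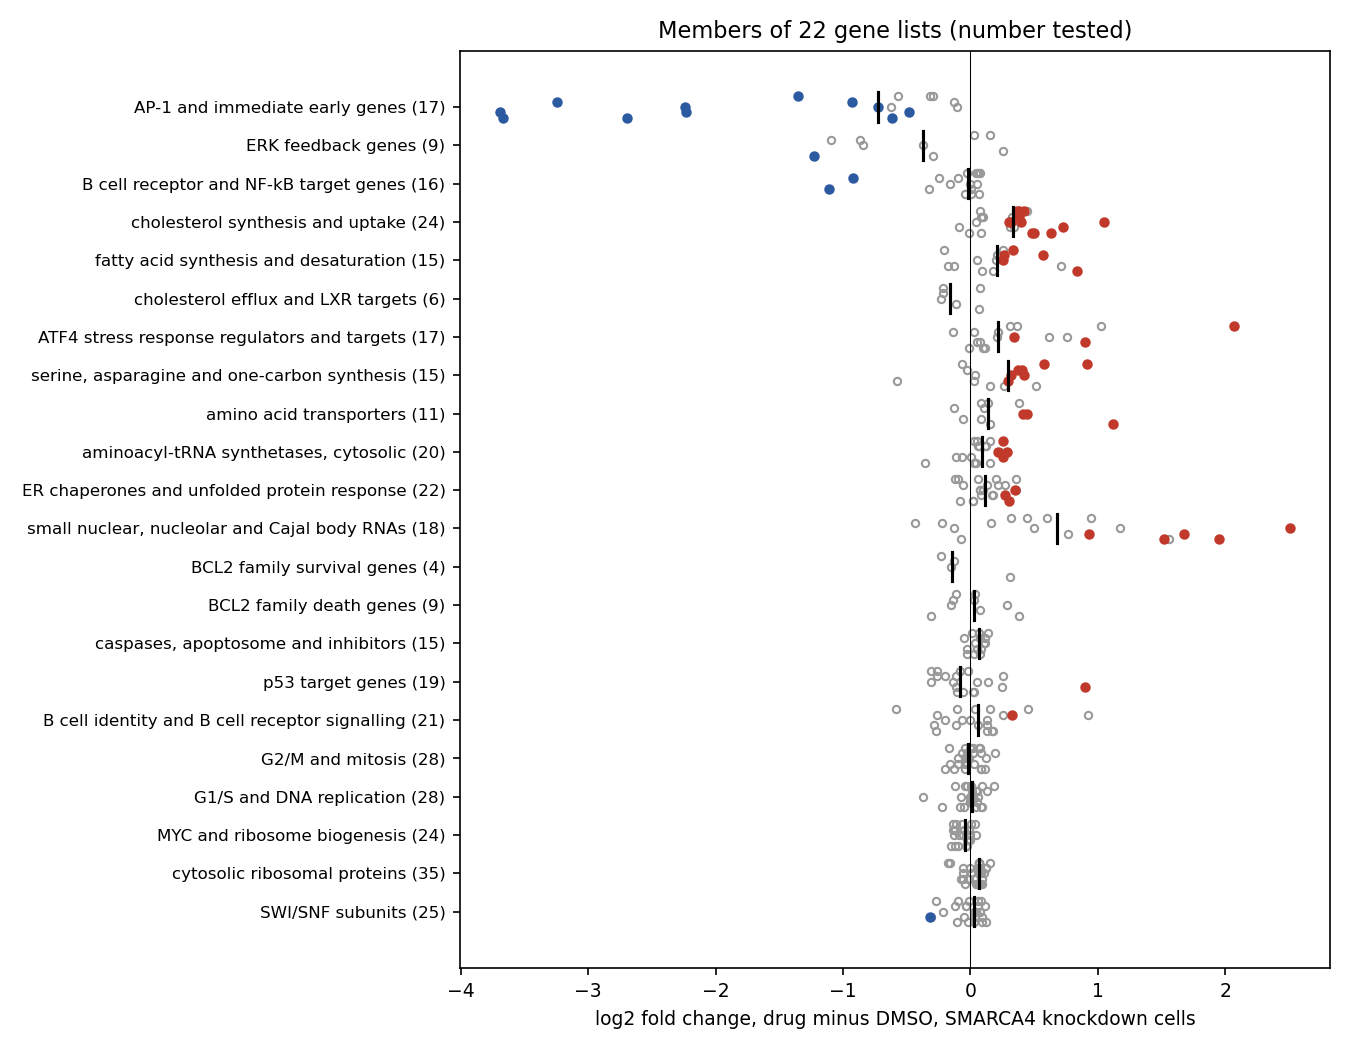
Log2 fold change of drug against DMSO in SMARCA4 knockdown cells (x axis) for the tested members of 22 gene lists (number tested in brackets). Red points rose, blue points fell, open grey points did not pass, and the black bar is the list's median. The median is -0.72 for immediate early genes, 0.33 for cholesterol genes and 0.68 for small RNAs, and close to 0 for cell cycle and ribosomal lists.

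Of 18 small nuclear, nucleolar and Cajal body RNAs, 5 rose, against 0.738% of all genes, and none fell (median 0.68). Among the 5 was RN7SK, which had the largest rise of all calls. QuantSeq primes cDNA from poly(A) stretches, and these RNAs are mostly not polyadenylated, so their counts come from a minor fraction of their molecules. RN7SK (ENSG00000202198), the 7SK RNA that holds the elongation kinase P-TEFb inactive, read 4.48, 5.54 and 4.66 CPM under DMSO and 21.8, 29.4 and 31.2 CPM under the drugs. Its log2 fold change was 2.51 (SE 0.15, adjusted p = 1.47e-12), with no overlap. SCARNA2, a guide RNA of Cajal bodies, gave 6.89, 5.64 and 5.90 CPM and 21.7, 24.2 and 24.5 CPM (1.95, SE 0.12, adjusted p = 2.31e-12). RNU4-2, which encodes the U4 spliceosomal RNA, rose by 1.52 (adjusted p = 3.22e-05). The minor spliceosome RNAs RNU6ATAC and RNU11 rose by 1.67 and 0.93 (adjusted p = 0.0102 and 0.0362), with 6 to 29 counts per library for RNU6ATAC. Without DMSO replicate 3 or without drug replicate 3, 3 of 19 then tested rose, and DESeq2 called 3 of the 18. Without drug replicate 1, 5 rose and 1 fell. RN7SK and RNU4-2 have near-identical copies in the genome, and how reads were shared among them is not stated.

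The 28S and 18S ribosomal RNA rows fell. QuantSeq primes cDNA from poly(A) stretches, so these rows count primed reads and do not measure total ribosomal RNA. RNA28S5, a 28S rRNA row, held 18312, 17084 and 23984 CPM under DMSO and 9047, 14763 and 12115 CPM under the drugs (-0.73, SE 0.11, adjusted p = 5.64e-05). RNA18S5, an 18S row, was at 84997, 81946 and 86431 CPM and 59702, 73332 and 74914 CPM (-0.29, SE 0.06, adjusted p = 0.00474). The drug libraries were lower in both rows, with drug replicate 1 the lowest. Without that library RNA18S5 was at -0.19 and its call was lost (adjusted p = 0.0696). Ribosomal RNA rows took 10.0% to 11.1% of counts in the DMSO libraries and 7.20% to 8.98% in the drug libraries. Taking these rows out before scaling removed 2 of the 162 calls, RNA18S5 and RNA28S5 themselves. Of the others 159 passed again, and DTX1 did not.

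Of 13 mitochondrially encoded genes tested, 1 rose, 2 fell and 10 did not pass (median -0.02). MT-CO1, a subunit of cytochrome c oxidase, rose by 0.26 (adjusted p = 0.00418), while MT-ND6 and MT-ATP8 fell by 0.44 and 0.39 (adjusted p = 2.62e-05 and 0.00153). The MT-ATP8 call was lost with DESeq2 (adjusted p = 0.0566). MT-ND6 is the protein gene on the light strand, and MT-ATP8 overlaps MT-ATP6, so reads there cannot be assigned to 1 gene with certainty. Mitochondrial tRNA rows fell in 6 of 22 cases and rose in none (median -0.52) with edgeR, against 0.548% falling among all genes. None of those 6 falls passed with DESeq2. MT-TS2, a serine tRNA, fell by 0.71 (SE 0.16, adjusted p = 0.0103). Without DMSO replicate 3 it was at -0.47 (adjusted p = 0.225).

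The BCL2 family genes tested, among them the venetoclax target BCL2, did not pass. Of the anti-apoptotic BCL2 family, none of 4 passed with edgeR, DESeq2 or limma-voom, and 2 (BCL2 and MCL1) had an unadjusted p under 0.05. Over all 12602 genes tested, 1316 had an unadjusted p under 0.05 (edgeR). BCL2 (ENSG00000171791), the target of venetoclax, stood at 35.2, 41.5 and 34.1 CPM under DMSO and 32.7, 30.2 and 30.9 CPM under the drugs. All 3 drug libraries were lower, but the log2 fold change of -0.23 (SE 0.08) had an adjusted p of 0.266. MCL1 was at -0.13, BCL2L1 at -0.16 and BCL2L2 at 0.31 (adjusted p = 0.466, 0.557 and 0.881). The drug libraries of MCL1 and BCL2L1 also lay wholly below the DMSO libraries, as in 7.45% of all genes tested, and those of BCL2L2 overlapped them. Among 9 death-promoting members, none passed with any of the 3 tools and 3 had an unadjusted p under 0.05 (BAX, HRK and PMAIP1). Their values ran from -0.31 (BAX, adjusted p = 0.0671) to 0.38 (HRK, adjusted p = 0.421). BAX passed with edgeR when drug replicate 2 or replicate 1 of the control shRNA DMSO group was left out. The BH3-only genes PMAIP1 and BBC3 were at -0.14 and 0.03 (adjusted p = 0.355 and 0.959). BCL2L11 and BCL2A1 are not analysed here.

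Cell cycle and growth programmes did not pass either. No gene passed among 28 of G2/M and mitosis, 28 of G1/S and DNA replication, 24 of MYC and ribosome biogenesis, and 35 cytosolic ribosomal proteins, and the medians of these lists lay between -0.04 and 0.06 (edgeR). At an unadjusted p under 0.05 (edgeR) they held 3, 3, 3 and 6 genes, against 1316 of all 12602 genes tested. In the MYC list 21 of 24 values were negative, and 6 genes had all drug libraries below all DMSO libraries, against 7.45% of all genes. Of the 35 ribosomal proteins 25 values were positive, and 10 genes had all drug libraries above all DMSO libraries, against 7.76%. DESeq2 called 1 in the MYC list. Nor did any pass with the 3 tools among 15 caspase and apoptosome genes, 30 of nuclear oxidative phosphorylation, 19 of glycolysis and 15 of the type I interferon response, with 1, 2, 2 and 0 at an unadjusted p under 0.05. Of 18 heat shock genes none passed with edgeR, 6 had an unadjusted p under 0.05, and DESeq2 and limma-voom each called 1. Of 19 p53 targets 1 rose, SESN2, which is also in the ATF4 list. In the p53 list 7 genes had an unadjusted p under 0.05 (edgeR), and 12 values were negative and 7 positive. Of 17 histone genes, the linker histone HIST1H1B fell by 0.42 (adjusted p = 0.00197). In that list 14 values were negative (median -0.16), 7 genes had an unadjusted p under 0.05 (edgeR), and limma-voom called 3. Among 21 B cell identity and B cell receptor signalling genes, the lineage factor PAX5 rose, by 0.32 (SE 0.06, adjusted p = 0.00312), and did not pass without drug replicate 3. In that B cell list 7 genes had an unadjusted p under 0.05 (edgeR), and 12 values were positive and 9 negative. Of 25 SWI/SNF subunits, SMARCC2 fell by 0.32 (SE 0.08, adjusted p = 0.0429), a call lost under 11 of 23 alternative analyses.

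The same drugs in control shRNA cells give the comparison for the knockdown. There, 163 genes changed (1.29%), 93 higher and 70 lower (0.738% and 0.555%). The 2 comparisons share no library. In both, 44 genes rose, 47.3% of the rises in either genotype, and 25 fell, 36.2% of the falls in knockdown cells and 35.7% of those in control cells. Of the 93 that rose in knockdown cells, 88 were positive in control cells, and of the 69 that fell, 67 were negative. Values for the leading genes stand side by side. EGR1 was at -2.24 in knockdown and -2.08 in control cells, RGS2 at -1.11 and -1.17, FDFT1 at 0.73 and 0.72, CHAC1 at 2.07 and 1.53, and RN7SK at 2.51 and 3.23. JUN passed in knockdown cells (-2.70) and not in control cells (-1.14, adjusted p = 0.197), as did ATF4 (0.34 and 0.16) and EBP (0.38 and 0.05). None of these differences passed the interaction test, which asks whether the drug effect differs between genotypes (adjusted p = 0.891 for JUN, 0.914 for ATF4 and 0.569 for EBP). The interaction for JUN was -1.56 with an SE of 0.60, and a p above the threshold does not show that the responses were equal.

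**Figure D4:**
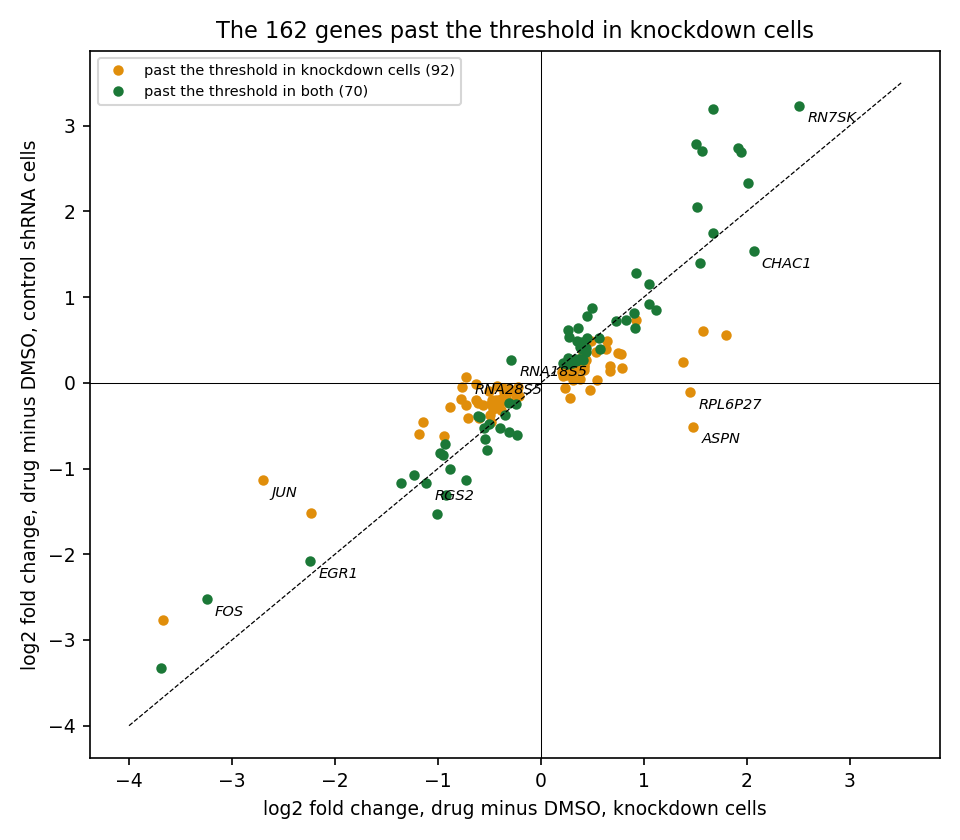
Log2 fold change of drug against DMSO in SMARCA4 knockdown cells (x axis) and in control shRNA cells (y axis) for the 162 genes past the threshold in knockdown cells, with the line of equal change dashed. Green points passed in both genotypes (70) and orange points in knockdown cells and not in control cells (92). Points of equal sign number 88 among the rises and 67 among the falls, and RNA18S5 is the green point of opposite sign. The genes were chosen on their knockdown values.

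Of 12602 genes, 3 passed the interaction test (0.0238%), and 674 had an unadjusted p under 0.05. RNA18S5 fell by 0.29 in knockdown cells and rose by 0.27 in control cells (adjusted p = 0.00834), an interaction of -0.55 (SE 0.08, adjusted p = 0.00203). RNA28S5 had an interaction of -0.79 (SE 0.15, adjusted p = 0.048), with 0.06 in control cells. Both ribosomal RNA rows count poly(A)-primed reads and do not measure total ribosomal RNA. NEAT1, the long noncoding RNA that builds paraspeckles, was at 239, 209.8 and 222 CPM under DMSO and 214, 215 and 178 CPM under drug in knockdown cells, and these overlapped (-0.14, adjusted p = 0.437). In control cells it fell from 285 ± 14.1 to 183 ± 12.4 CPM (-0.64, adjusted p = 1.21e-07), which gave an interaction of 0.50 (SE 0.09, adjusted p = 0.048). The calls for RNA28S5 and NEAT1 were lost in 11 of 20 and 12 of 21 alternative analyses. The ribosomal RNA rows, which include RNA18S5 and RNA28S5, went from 9.15% ± 0.308 to 10.6% ± 0.330 in control cells and from 10.5% ± 0.525 to 8.36% ± 1.01 in knockdown cells of counts (SD, n = 3). Deviations from the group means had r = 0.124, 0.134 and 0.261 across genes between same-numbered DMSO libraries of the 2 genotypes. Differently numbered libraries were not compared there, so a shared replicate effect was not settled. With the replicate number as a block over all 12 libraries NEAT1 had an adjusted p of 0.0628, while RNA18S5 and RNA28S5 passed. For the control cells, 1 drug library (replicate 1) was matched to its column by elimination of the other names. It enters the control and interaction values directly, and the knockdown p-values through the scaling and the spread shared by all groups. Without it, 158 genes were called in knockdown cells, 153 of them among the 162.

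**Figure D5:**
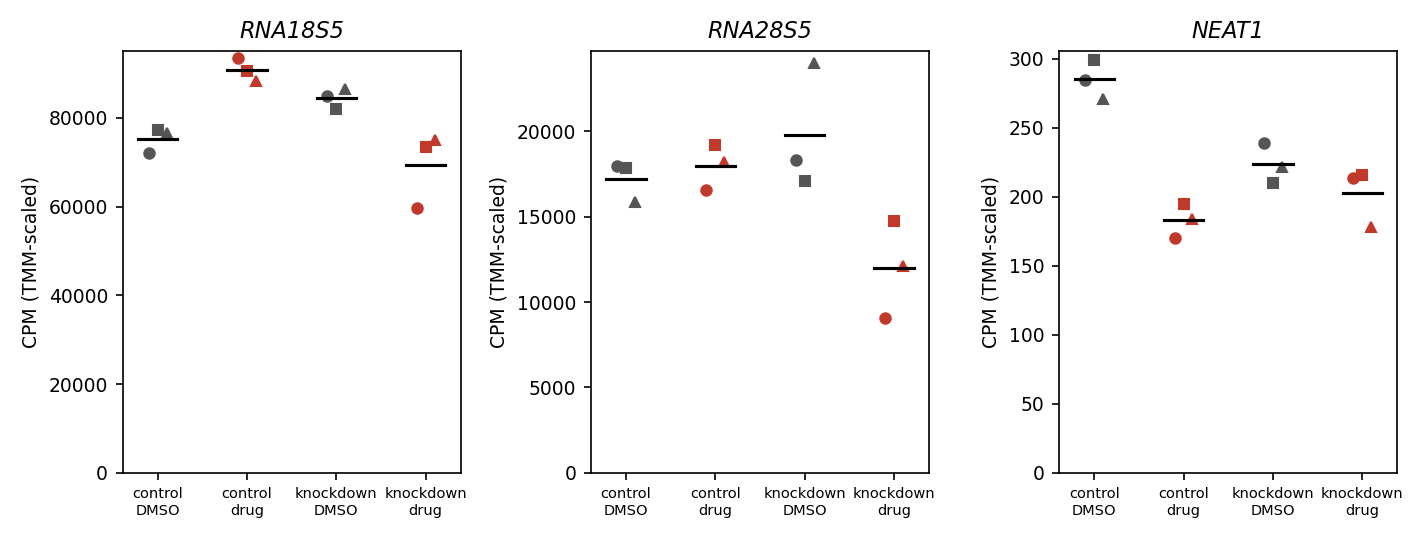
Level of RNA18S5, RNA28S5 and NEAT1 as TMM-scaled CPM (y axis, from 0) in each of the 12 libraries, by genotype and treatment. Grey symbols are DMSO, red symbols ibrutinib plus venetoclax, the shape gives the replicate and the bar is the mean of 3. RNA18S5 is higher under drug in control cells and lower under drug in knockdown cells, and NEAT1 is lower under drug in control cells.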

How the data were processed

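RNA from Z-138 cells was measured by Lexogen QuantSeq 3' mRNA sequencing. The deposited table holds whole-number read counts per gene, not normalized. HISAT2, HTSeq and bcl2fastq 2.17.1.14 are listed in the submitters' processing notes, with the hg19 build. The annotation and the strand setting are not stated, so overlapping and antisense genes are uncertain. Genes with near-identical copies are uncertain too.

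Counts were fitted with edgeR 4.0.16 (R 4.3.3; quasi-likelihood, TMM scaling) over 12 libraries in 4 groups of 3. filterByExpr (minimum count 10, total 15) kept 12602 of 13820 genes. An identifier without a symbol stood in 1656 rows. All adjusted p are two-sided edgeR quasi-likelihood p-values with Benjamini-Hochberg adjustment, with a threshold of 0.05. The residual degrees of freedom were 8 and the common biological variation 5.69%. The SE is the log2 fold change divided by the root of its F value. "Rose" and "fell" mean past that threshold. Alternatives were DESeq2 1.42.0, limma-voom (limma 3.58.1), other scalings, filters, a replicate block and leaving out each library.

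The steps were tested on simulated counts with the same spread for every gene and no replicate effect. That test does not cover genes whose libraries spread widely, such as EGR1. Named genes were SMARCA4, ATF3, the BCL2 family, the 15 largest rises and falls among non-overlapping calls whose average log2 CPM was 3 or more, up to 4 called members per list, and interaction calls. Other genes were named after their values were seen, and some results are not reported here. The gene lists and the genes in them were chosen with earlier results of these data known. The 39 lists are described by counts and medians. MHC class II, cyclin D, hypoxia, and autophagy and lysosome genes gave 0 calls in 12, 10, 13 and 20 tested with edgeR, DESeq2 and limma-voom, with 0, 0, 1 and 1 at an unadjusted p under 0.05. Of 11 nuclear long noncoding RNAs none was called (4 at an unadjusted p under 0.05, against 1316 of all 12602 genes tested). The plasma cell list held 1 rise in 10 (XBP1) and the NRF2 list 1 in 16 (SLC7A11). Gene starts came from RefSeq on GRCh38.p14. Since that build differs from the hg19 of the counts, no other coordinates are given.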

Additional observations from a re-analysis of the deposited data

Results flagged for a closer look

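For 3 genes the effect of ibrutinib plus venetoclax differed between SMARCA4 knockdown and control shRNA cells by the interaction test (edgeR quasi-likelihood, adjusted over 12602 genes). RNA18S5 had an interaction of -0.55 on the log2 scale (adjusted p = 0.00203), with all 3 drug libraries below all 3 DMSO libraries in knockdown cells and all 3 above in control cells. It passed in all 20 alternative analyses in which it was tested, with values from -0.61 to -0.46. RNA28S5 had an interaction of -0.79 (adjusted p = 0.048) and lost its call in 11 of 20 alternatives, where the adjusted p ranged up to 0.851 (DESeq2). RNA18S5 and RNA28S5 count poly(A)-primed reads, so a difference in total ribosomal RNA was not tested. The NEAT1 interaction was 0.50 (adjusted p = 0.048), from a fall in control cells that was smaller and not past the threshold in knockdown cells. It was lost in 12 of 21 alternatives, with values from 0.45 to 0.58 and adjusted p from 0.00122 to 0.316.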

How the results depend on the processing

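With the replicate number as a block, the fit of the 6 knockdown libraries alone gave 105 calls (56 higher, 49 lower) in place of 162 (93 and 69), and 102 of them were among the 162. The replicate block over all 12 libraries gave 147. In knockdown cells, deviations from the group means of same-numbered drug and DMSO libraries had r = -0.106, -0.200 and -0.399 across 4423 genes. Differently numbered pairs there had r from -0.151 to 0.304. Same-numbered pairs in control cells had r = -0.286, 0.205 and -0.059. Deviations from means of 3 libraries cannot show whether a culture or day was shared, so pairing was not settled. Between the 2 genotypes, same-numbered DMSO libraries had r = 0.124, 0.134 and 0.261 and drug libraries 0.337, -0.027 and 0.113. Differently numbered libraries were not compared between genotypes. Leaving out each library in turn gave 100 to 181 calls, 54 to 100 higher and 45 to 82 lower. The lowest total came without DMSO replicate 3, the next, 102, without drug replicate 1, and rises numbered 59 without DMSO replicate 1 and 61 without drug replicate 3. For the interaction, a filter of 5 CPM in 3 libraries left 1 call, taking out the ribosomal RNA rows, 2 of the 3 calls themselves, left 0 (NEAT1 adjusted p = 0.147), and leaving out each library gave 1 to 3. Library totals without scaling factors gave 132 higher and 53 lower. DESeq2 called 127 genes, limma-voom 164 and the 6 libraries alone 154, and thinning the deepest library gave 141.

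Of the 162 calls, 68 held in each of up to 23 alternatives, 94 were lost in at least 1, and none changed sign. Among the 74 named genes, 58 were called, and 40 of those held in all alternatives. EGR1, IER2, RGS2, CHAC1, SCD and RN7SK held in all 23. When 1 library of a group was left out, the remaining libraries shared the spread estimated over all groups. Counts limit the low genes: EGR2, NR4A1 and RNU6ATAC rest on 0 to 95 counts per library.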

Other observations

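Other calls belong to none of the groups above. ICOSLG and HIST1H2AJ were named by the rule for the largest rises and falls. All other genes in this section were chosen after their values were seen. POU2F2, the B cell factor Oct-2, rose in treated knockdown cells from 179 ± 4.73 to 245 ± 8.54 CPM (0.45, adjusted p = 1.03e-06), and was at 0.52 in control cells. ICOSLG, the ligand of the T cell costimulator ICOS, read 6.56, 6.19 and 6.47 CPM under DMSO and 11.8, 10.9 and 9.77 CPM under the drugs (0.75, adjusted p = 0.00223). The class IIa deacetylase HDAC7 and the calcineurin-responsive factor NFATC2 rose by 0.34 and 0.32 (adjusted p = 1.85e-04 and 0.0203). The RNA-decay factor ZFP36L1 fell by 0.35 and the adaptor GRB2, which links receptors to RAS, by 0.25 (adjusted p = 0.00105 and 0.0353).

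Histone rows outside the histone list, where most values were negative, moved in opposite directions. HIST1H4E rose by 0.93, while HIST1H2AJ fell by 0.63 (adjusted p = 0.018 and 1.44e-04). Histone genes are near-identical to one another and their mRNAs are mostly not polyadenylated, so these rows are uncertain. RNA5SP202, a 5S rRNA pseudogene row, rose by 2.01 in knockdown cells and was at 2.34 in control cells (adjusted p = 5.90e-08 and 5.75e-09). The pseudogene row RPL6P27 rose by 1.45 in knockdown cells (adjusted p = 0.00137) and was at -0.11 in control cells (adjusted p = 0.948). Its interaction had an adjusted p of 0.274.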
